A study of Mus musculus with 11 samples.

Results

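The wild-type whole brain is described here from 6 arrays, one per mouse, which are the 6 of the 11 arrays of the series whose titles call the animal wild-type. The mice were untreated C57BL/6J littermates of animals lacking a subunit of the nicotinic acetylcholine receptor. The other 5 arrays are of those homozygous null animals and enter no value below. Brain 1 came from a male of 9 weeks, brain 2 from a male of 8 weeks, brain 3 from a female of 7 weeks, brains 4 and 6 from males of 6 weeks and brain 5 from a female of 6 weeks. The animal numbers carry the letters B4 for brains 1 to 3 and LT for brains 4 to 6, and the labels do not say what the letters stand for. Age and number letters change together, so they cannot be told apart. Total RNA of each brain was labelled with biotin and hybridised to an Affymetrix-type array, and the deposited value of a probe set, a group of short probes against one transcript, is a MAS5 signal on a linear scale.

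A whole brain mixes neurons, astrocytes, the oligodendrocytes that wrap axons in myelin, microglia, blood vessels and the blood inside them. Neurons spend heavily on ion pumping and on recycling synaptic vesicles, and the transcripts of the ribosome, the mitochondrial respiratory chain and the cytoskeleton are abundant in them. Other transcripts are set by what the animal met shortly before death: immediate-early genes answer neuronal firing or stress quickly, hormone-responsive genes follow corticosterone, and clock genes follow the time of day. In such bulk RNA, fewer cells of a type and less RNA per cell cannot be told apart.

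The median signal of an array lay between 43.65 and 49.8. With 2% cut from either end all 6 had a mean signal of 150.1, a value fixed by the MAS5 scaling to a common mean. Spearman's correlation of 2 arrays over the 12422 probe sets other than the controls lay between 0.941 and 0.961, a description across genes of one tissue. Brain 4 stood apart in the 3′ to 5′ signal ratio of the Gapdh control, a measure of how complete the labelled RNA was: the ratio was 5.92 there and 3.57 to 4.35 in the other brains. The Actb ratio was also highest in brain 4, at 5.45, but reached 4.76 in brain 6. The signal ratio of the BioB control to the BioC control split the arrays by number letters. It was 0.415, 0.482 and 0.454 in brains 1 to 3 and 1.03, 1.13 and 1.06 in brains 4 to 6. Its part in the values below was not tested. On the first principal component, which held 44.7% of the variance, brains 2 and 3 lay at one end (scores -17.0 and -12.0) and brains 4 and 6 at the other (17.5 and 13.9). Spreads that rest on brain 4 are therefore given without it as well.

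Several lists of brain markers exceeded the 35.1% of all probe sets with a mean signal of at least 100, and others did not. Each gene was read on its brightest probe set, whereas the 35.1% counts every probe set. That choice raises a list's share, so these shares are not measured alike. Of the genes listed for oligodendrocytes and myelin, 8 of 10 measured reached 100, as did 11 of 13 for astrocytes, 16 of 20 for synaptic vesicles and 9 of 11 for the cerebellum. Only 4 of 15 did for vessels, 2 of 9 for the olfactory bulb and 2 of 8 for monoamine synthesis and transport. For the choroid plexus 3 of 8 did (37.5%), near the share of all probe sets. Of 19 genes of other organs, among them the liver's Alb and the heart's Myh6, 18 lay under 100, and the exception was Tnp1 through a probe set treated further on. None of the 7 genes measured for the pineal gland and retina, Aanat and Crx among them, reached 100. The nicotinic receptor's own subunits were dim: none of the 8 measured reached a mean of 100, with Chrne highest at 95.1 ± 41.7 (SD, n = 6). A dim or absent marker can also mean a poorly responding probe set, as for the myelin enzyme Cnp, whose probe set averaged 5.27.

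Most probe sets were dim and noisy, and the bright ones repeated well. Of 12422 probe sets, 541 (4.36%) had a mean of at least 1000 and 4359 (35.1%) of at least 100. The spread between brains is given as the coefficient of variation (CV), the SD over the 6 brains divided by their mean. With 6 brains its 95% chi-square interval, which takes signals as normally distributed, runs from 0.624 to 2.45 times the value. The median CV fell from 0.620 among the 2802 probe sets with a mean under 10 to 0.118 among the 33 with a mean of at least 5000. Because of this slope, probe sets were called stable or variable only among those with a mean of at least 100, where the median CV was 0.164 and the quartiles were 0.121 and 0.221. There, 625 of 4359 (14.3%) had a CV under 0.10 and were called stable. Another 67 (1.54%) had a CV of at least 0.50 and were called variable. The highest brain exceeded the lowest by 1.55-fold in the median probe set, by 1.23-fold in the median stable one and by 5.31-fold in the median variable one. No boundary in the data marked these thresholds: among named genes Specc1 was just inside the stable set at 0.0998 and Reep5 just outside at 0.10, while Nsmce4a was inside the variable set at 0.508 and Ago2 outside at 0.496.

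**Figure D1:**
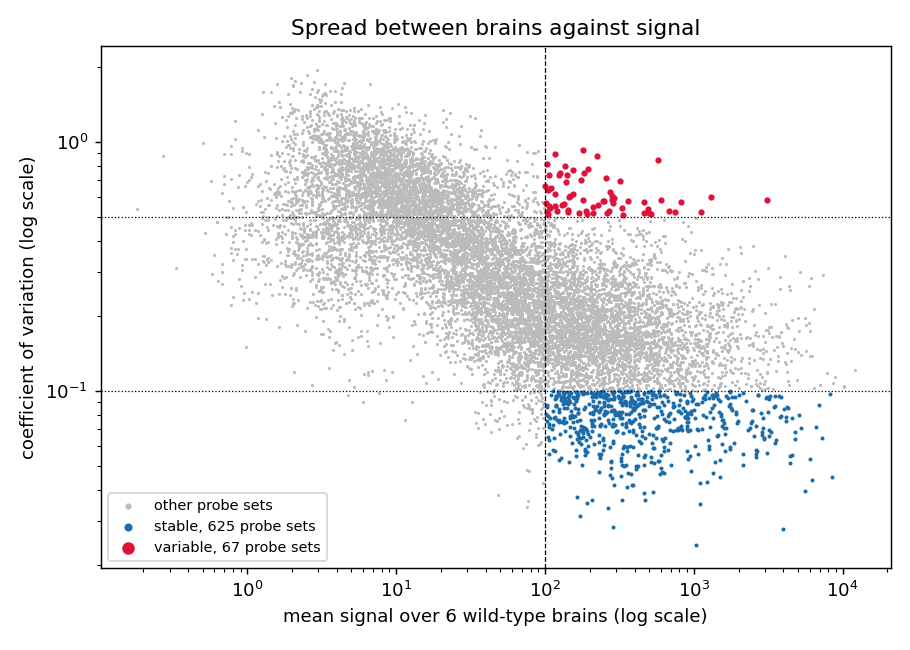
Coefficient of variation over the 6 wild-type brains (vertical, log scale) against mean signal (horizontal, log scale), with 1 point per probe set. The 625 stable points lie under the lower dotted line at 0.10 and the 67 variable points above the upper one at 0.50, both to the right of the dashed line at a mean of 100. The cloud falls from left to right, with a median of 0.620 under a mean of 10 and 0.118 at 5000 or more.

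The brightest named probe sets were those of Rpl41, Gnas, Tuba1a and Dnm1, with means from 8553 to 10303. A signal also depends on how well the probes bind, so its rank is that of the probe set and not of the number of transcripts. The brightest probe set of all, 101255_at (12048 ± 1462, SD, n = 6), has no gene in the table used here. The brightest 1%, 125 probe sets with means from 2924 up, held 21.5% of the summed signal; 44 of them were stable and 1 was variable. The 25 brightest probe sets with a single gene name stood for 21 genes, and 8 of the 25 had a CV under 0.10.

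Rpl41, a protein of the large ribosomal subunit, led the named probe sets with 12090, 10421, 10531, 10313, 9434 and 9030 in brains 1 to 6. Gnas, which encodes the stimulatory G protein that raises cyclic AMP, followed with 8927 to 11809 (mean 10297 ± 1075). Both were highest in brains 1 or 3 and lowest in brain 6, with no brain far from the rest. Tuba1a, the main alpha tubulin of growing neurons, averaged 8835 ± 1002. Dnm1, the dynamin that pinches synaptic vesicles off the membrane, averaged 8553 with an SD of only 387, a CV of 0.045. A second Dnm1 probe set, at a mean of 6187, had a CV of 0.138, so the spread belongs to a probe set as much as to a gene.

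App, the amyloid precursor protein, read 5835 to 7674 (CV 0.087), and Prnp, the prion protein, read 5939 to 6652 (CV 0.044). Snap25, a core part of the vesicle fusion machinery, read 7460 in brain 1 and 5215 to 6464 in the others. Cox6a1, a subunit of cytochrome oxidase, averaged 6665 ± 475, and Tpt1, the translationally controlled tumour protein, 6083 ± 324. Gsk3a, a kinase of glycogen and tau, had the narrowest spread among the 25: 5882, 5456, 5551, 5748, 5254 and 5596, a CV of 0.039. All of these except Snap25, with a CV of 0.138, had a CV under 0.10.

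Other bright genes were uneven. Eef1a2, the elongation factor form of neurons and muscle, read 3397 in brain 2 against 7201 to 9392 in the other brains. Apoe, the lipid carrier made by astrocytes, read 4858, 3355, 3602, 6034, 7392 and 5899, lowest in brains 2 and 3 and highest in brain 5. Ptgds, the prostaglandin D synthase of the brain's coverings and oligodendrocytes, was measured by several bright probe sets that did not match. One read 2996 in brain 4 against 5848 to 7963 elsewhere, and its CV of 0.283 was 0.135 without brain 4, while another read 4056 to 5577, lowest in brain 6. Mt2, a metal-binding metallothionein, read 3057 in brain 5 and 5131 to 5736 in the rest.

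**Figure D2:**
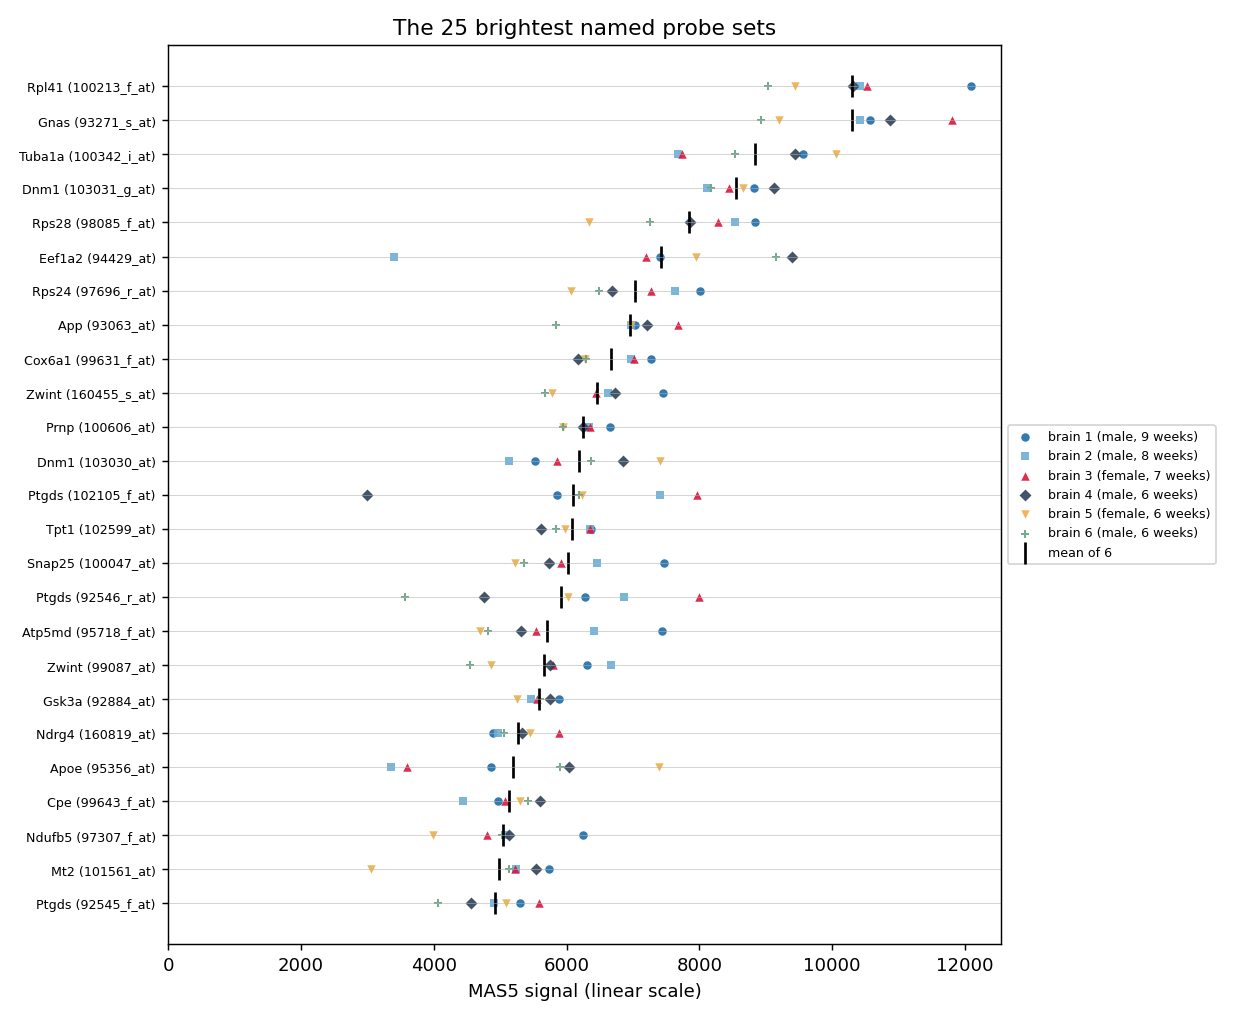
MAS5 signal (linear scale) of the 25 brightest probe sets with 1 gene name, 1 row per probe set, 1 mark per wild-type brain and a black bar at the mean of the 6. Rows such as Gsk3a (5254 to 5882) and Prnp (5939 to 6652) form tight clusters, whereas Eef1a2 has brain 2 alone at 3397 and Mt2 has brain 5 alone at 3057.

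The most even named genes varied by a few percent of their mean. Ddx17, an RNA helicase, had the lowest CV of the named genes, with 1042, 1037, 1013, 1044, 1044 and 982.8, a CV of 0.024 (95% interval 0.015 to 0.059). A second probe set of Ddx17 read 375.7 to 531.2 with a CV of 0.124. Sec24c, a coat protein of vesicles leaving the endoplasmic reticulum, read 273.5 to 292.2 (CV 0.028), and Tnpo3, which imports splicing factors into the nucleus, 255.6 to 277.7 (CV 0.034). The order of these genes depends on the scaling: Ddx17 had a CV of 0.041 after quantile normalization, above Sec24c (0.028) and Tnpo3 (0.029), and dividing arrays by their medians gave 0.050 for Ddx17, 0.063 for Sec24c, 0.086 for Tnpo3 and 0.038 for Gsk3a.

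Pum2, an RNA-binding repressor of translation, read 1052 to 1144 (CV 0.035). Gspt2, a translation termination factor, read 184.7 to 201.1, and Zcrb1, a zinc finger protein of the minor spliceosome, 196.5 to 218.3. Sox13, a transcription factor, was even at 168.1 to 170.7 in 5 brains and slightly higher, 182.1, in brain 1. Adcy9, an adenylyl cyclase, Cd59a, a complement inhibitor, and Hagh, the glyoxalase that detoxifies methylglyoxal, had CVs of 0.037, 0.037 and 0.039, of which Adcy9 and Hagh went to 0.087 and 0.085 with arrays divided by their medians. The energy machinery was among the 20 most stable through Atp5d of the ATP synthase (368.8 to 417.5) and Ndufb9 of complex I (1165 to 1310). The others were Dda1, Gsk3a, the ubiquilin Ubqln2, Prkcd, the pentose phosphate enzyme Taldo1, Prnp, the chromatin remodeller Smarca2 and the chaperone partner Dnajb6, with CVs from 0.039 to 0.045. Of the 20, 6 had a mean of at least 1000. Further probe sets of some of these genes were less even. For Dda1 such a probe set read 110.4 in brain 2 and 277.1 in brain 4 (CV 0.427). Further ones of Prkcd, Atp5d and Adcy9 at a mean of at least 100 had CVs of up to 0.198, 0.197 and 0.139.

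Stability of single members should be read with the small number of brains. Of the 625 stable probe sets, 456 stayed under 0.10 whichever brain was left out.

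The variable set moved largely along one pattern, low in brain 2 and high in brains 4 and 6. Tspan5, a membrane tetraspanin, had the largest CV of the named genes, 0.93 (95% interval 0.58 to 2.28), with 102.0, 39.5, 53.8, 416.7, 98.9 and 368.0 in brains 1 to 6. Sfpq, a splicing factor rich in proline and glutamine, read 54.8, 24.4, 47.6, 255.4, 73.9 and 243.8 (CV 0.89). Ppm1b, a metal-dependent protein phosphatase, read 367.2, 92.3, 243.6, 1282, 387.1 and 1058 (CV 0.84). In all 3 genes brains 4 and 6 lay well above the other brains and brain 2 was lowest.

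Much the same order held for genes of quite different roles. Gnai1 and Gna12, alpha subunits of G proteins, read 52.8 and 31.0 in brain 2 and 403.6 and 269.0 in brain 4. Pou3f3, a transcription factor of neural progenitors and cortical neurons, read 26.7 in brain 2 and 239.6 in brain 6, and Timp2, an inhibitor of matrix metalloproteinases, 59.2 in brain 2 and 610.7 in brain 4. Syn2, a synapsin that tethers synaptic vesicles, read 425.3, 276.9, 406.0, 966.1, 411.0 and 1126. The ubiquitin-conjugating enzymes Ube2h and Ube2z, the Fas-associated protein Faf1, the mRNA export factor Alyref and the repressor subunit Drap1 were also highest in brain 4 or 6, with CVs of 0.59 to 0.80. Ube2h, however, was lowest in brain 5 (40), and a brighter probe set of it had a CV of 0.207. Drap1 read 391.5 in brain 5, above the 361.5 of brain 6. Of the 25 named genes with the largest CV, 19 had brains 4 and 6 both above all the other brains and 20 had brain 2 lowest.

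Among all 67 variable probe sets, brain 2 was lowest in 44 (65.7%), against 14.02% of the 4359 probe sets with a mean of at least 100. Brain 4 was highest in 41 (61.2%), against 14.9%, and brain 6 in 15. Brains 4 and 6 were both above brains 2 and 3 in 59 of the 67 (88.1%), against 25.5% of the 4359, and both below in 7. Brain 4 is also the array with the highest 3′ to 5′ ratio of Gapdh, and brain 6 has the lowest, at 3.57. The Actb ratio was 3.59 in brain 3, 4.07 in brain 2, 4.25 in brain 1 and 4.42 in brain 5. It was 4.76 in brain 6 and 5.45 in brain 4. The part of either ratio in the pattern was not tested. Without brain 4, 48 of the 67 kept a CV of at least 0.50, and without brain 2, 42 did. With the SD pooled within the B4 and within the LT brains, 23 of the 67 stayed at 0.50 or above. Brain 1, from the oldest animal, was lowest in 4 of the 67 (5.97%, against 18.6% of the 4359). Brain 5 shares age and letters with brains 4 and 6. It read 98.9 for Tspan5 and 387.1 for Ppm1b, well below both. The variable gene Rnd2 instead read 171.3 in brain 5, 235 and 224.4 in brains 4 and 6, and 30.6 to 64.6 in brains 1 to 3. The part of age and letters in the pattern was not tested.

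Different probe sets of one gene often ranked the brains alike in the variable set but not in size. Of 436 pairs of probe sets of one gene with both means at least 100, 28.7% shared their highest brain. Among the 19 pairs with one member at a CV of at least 0.50, 15 did. Nudt4, a diphosphoinositol polyphosphate phosphohydrolase, went from 59.9 to 503.9 between brains 2 and 6 on one probe set and from 862.8 to 1805 on another, brighter one (CV 0.72 and 0.30). Ubqln1, a ubiquitin-like shuttle to the proteasome, behaved similarly, with CVs of 0.61 and 0.30. For Gnai1 a brighter probe set read 995.9 to 1293, highest in brain 4 as well, with a CV of only 0.090. Gnai1 is thus variable or stable depending on which probe set is read, while the brighter probe sets of Nudt4 and Ubqln1 still spread widely.

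A few variable genes left the common pattern. Nnat, neuronatin, an imprinted gene of the developing brain and endocrine cells, read 614.6 in brain 5 and 85.5 to 201.4 in the other 5 brains. Without brain 5 its CV was 0.319. S100a5, a calcium-binding protein of olfactory sensory neurons, ran the other way, with 155.1, 127.6 and 232.3 in brains 1 to 3 and 51.8, 48.5 and 27.5 in brains 4 to 6. Tnp1, which packs DNA in sperm, read 417.8 in brain 4 and 78.0 to 166.6 elsewhere on a probe set ending in _r_at, the suffix for probes chosen under relaxed design rules, while its other probe set read 1.4 to 3.1. Without brain 4 the CV of Tnp1 was 0.274, from 0.703. Probe sets of that suffix held 6 of the 67 variable and 4 of the 625 stable members, out of 150 with a mean of at least 100.

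**Figure D3:**
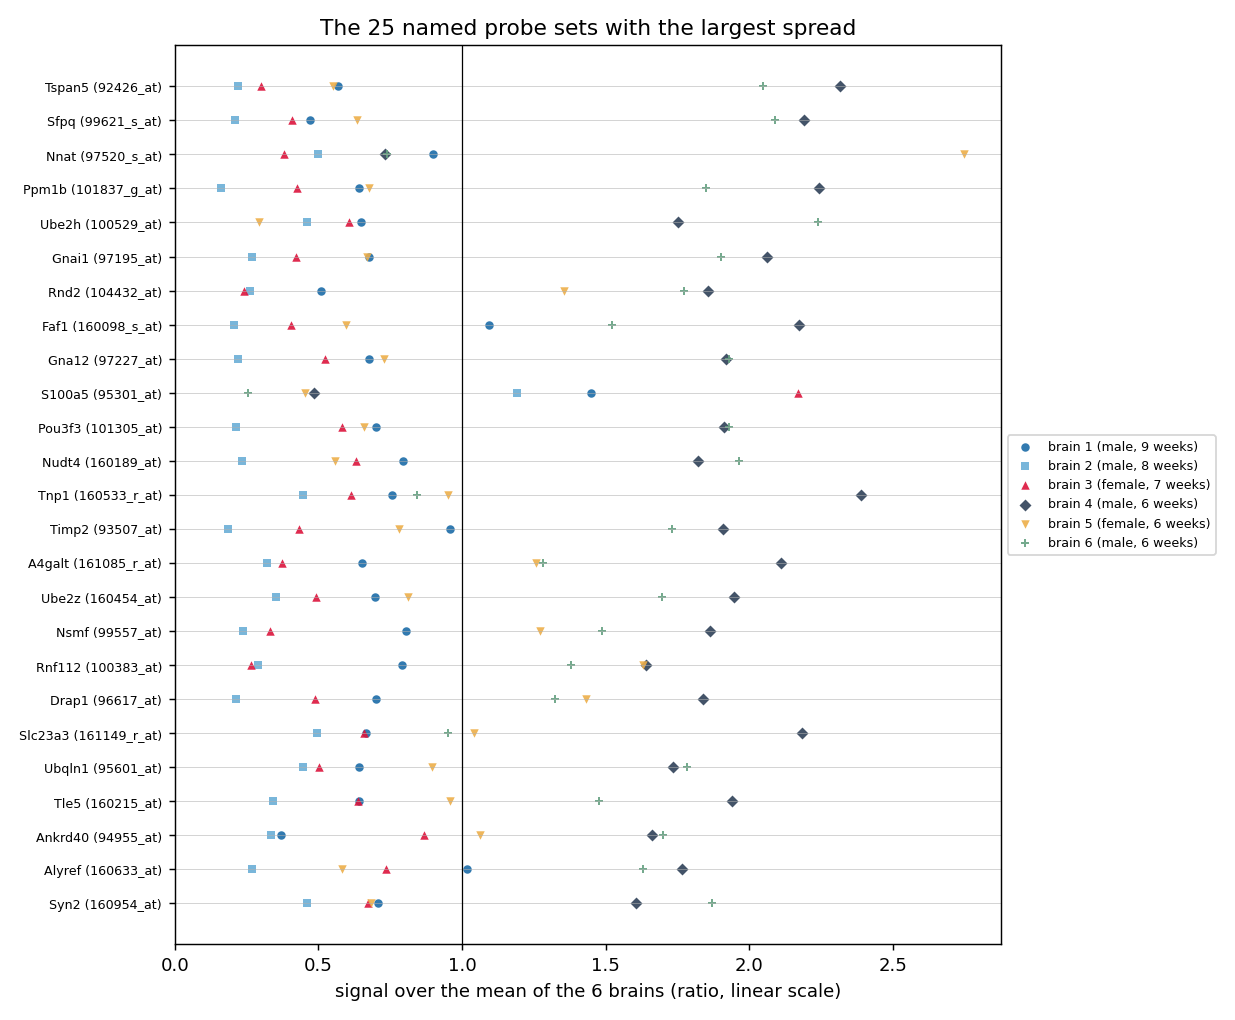
Signal of each wild-type brain divided by the mean of the 6 (ratio, linear scale) for the 25 named probe sets with the largest coefficient of variation and a mean of at least 100, from Tspan5 (0.93) at the top to Syn2 (0.58). In 19 of the 25 rows the diamonds of brain 4 and the plus signs of brain 6 both lie right of all the other marks, and in 20 the square of brain 2 lies furthest left. Nnat and S100a5 are exceptions.

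High signal and high spread seldom met: only 3 probe sets with a mean of at least 1000 had a CV of at least 0.50, and 139 had a CV under 0.10. Tle5, a short member of the Groucho family of co-repressors, read 839.0, 445.6, 834.3, 2531, 1249 and 1926. Nrgn, neurogranin, which binds calmodulin in dendritic spines of forebrain neurons, read 588.7, 796.0, 812.3, 2137, 906.6 and 1495. Both were highest in brains 4 and 6. Without brain 4 the CV of Nrgn was 0.372. Erdr1, placed on chromosome X in the gene table, read only 189.2 in brain 4 against 2320 to 5677 in the others (CV 0.58, and 0.338 without brain 4), and it was the sole variable member of the brightest 1%. Just below in spread came Ckb, the brain creatine kinase, at 4384 in brain 5 and 1756 to 2642 elsewhere, and Pcsk1n, the proSAAS precursor, at 1246 in brain 2 and 3055 in brain 5. The glial neurotensin receptor Ntsr2 and the endosomal GTPase Rab5a followed the pattern of brains 4 and 6, with 2270 and 2054 for Ntsr2 and 1529 and 1681 for Rab5a.

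The remaining accounts go through gene lists, taking for each gene its brightest probe set and counting members with a mean of at least 100. The brightest, the stablest and the most variable member of each list were named by rule, and further members were chosen after their values were seen. Of the 26 lists with at least 4 such members, 17 had a median CV above the 0.164 of all probe sets at that signal. No test was made on a list, and each median stands as a description.

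Myelin genes spread more widely than most. Mobp, a structural protein of myelin, read 3118 to 3874 on its brightest probe set (CV 0.087), but 3 dimmer ones had CVs of 0.166, 0.182 and 0.267 and were lowest in brain 1. Sox10, the transcription factor of the oligodendrocyte lineage, read 208.5 to 267.8 (CV 0.096). Mag, the adhesion protein of the inner myelin wrap, read 118.8, 216.0, 211.7, 184.0, 381.1 and 161.9, and Mog, on the outer surface of myelin, 101.9 to 304.6. Mbp, the basic protein that compacts myelin, read 1624 in brain 1 and 2382 to 3194 in the others. Cldn11, the tight-junction protein of myelin, read 206.7 in brain 1 and 503.6 in brain 5. These 4 genes were all lowest in brain 1, the oldest animal, and highest in brain 5, and the list's median CV was 0.278 over 8 members. Brain 5 was highest for 6 of the 8, against 20.5% of all probe sets at that signal.

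Astrocyte genes had a median CV of 0.208, with 1 of 11 stable, against 14.3% of all probe sets at that signal. Sparcl1, an extracellular protein of mature astrocytes, was the even one, at 2127 to 2688. Glul, the glutamine synthetase that takes up synaptic glutamate, read 170.6 in brain 5 and 281.8 to 472.0 in the others. Gfap, the astrocyte filament, stayed between 218.7 and 360.1. The summed signal of the 13 measured astrocyte genes ran from 19851 to 22986, a CV of 0.054. A sum evens out members that do not move together, so this CV is not comparable with theirs.

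Of 12 microglial genes measured, each on its brightest probe set, 6 had a mean of at least 100. The share was 35.1% of all probe sets, dimmer ones of the same gene included. The cathepsin Ctss (644.8 to 862.2) and the complement gene C1qc (197.8 to 259.2) had CVs of 0.110 and 0.106. C1qa read 242.5 in brain 5 and 110.8 to 154.4 elsewhere, and Csf1r, the receptor that keeps microglia alive, was also highest in brain 5, at 409.6. Of 15 genes of vessels, 4 reached a mean of 100, and of these Cldn5, the tight-junction protein of the blood-brain barrier, varied most: 153.6 in brain 2 to 428.1 in brain 4 (CV 0.371). The defining endothelial receptors Tek, Flt1 and Kdr were all under 100.

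Globin signals differed between brains by up to 2.58-fold for Hba-a1 and 2.91-fold for Hbb-b2. Hba-a1, the alpha globin, read 3037, 6027, 5130, 2340, 3322 and 4848, and Hbb-b2, a beta globin, 400.8, 788.6, 727.8, 289.8, 433.2 and 843.4. Both were lowest in brain 4 and high in brains 2, 3 and 6, and without brain 4 their CVs were 0.282 and 0.324, from 0.346 and 0.402. Alas2, the first enzyme of haem synthesis in red cells, was dim (14.8 to 49.1) and also lowest in brain 4 and highest in brain 6. Near-identical globin copies may share probes. Ttr, the thyroid hormone carrier of the choroid plexus, read 896.6 to 1616, and Igf2, made by the plexus and meninges, 947.4 to 1337. Igfbp2, a binding protein of insulin-like growth factors, was variable (CV 0.538), with 150.7 in brain 2 and 828.7 in brain 4, the order of the variable set rather than of Ttr, which was highest in brain 1.

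Markers of brain regions had median CVs of 0.112 to 0.219, against 0.278 for myelin and 0.374 for blood. The 0.219, of the olfactory list, and the 0.374 rest on 2 genes each, fewer than the 4 used to compare lists elsewhere. In the cerebellum, Calb1, the calcium buffer of Purkinje cells, read 606.4 to 709.7 (CV 0.058), and Pvalb, a calcium buffer of fast-spiking neurons, 1404 to 2259. Neurod1, a transcription factor of granule cells, varied most of the cerebellar genes, from 234.8 to 533.5. In the striatum the opioid precursor Penk (2715 to 3510) and the substance P precursor Tac1 (299.3 to 377.5) had CVs of 0.109 and 0.082. In the cortex and hippocampus Lmo4 and Wfs1 had CVs of 0.143 and 0.127, and Nrgn, given above, was the variable one. Reln, the secreted guide of cortical layering, stayed between 355.0 and 619.6.

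Neuropeptide genes had a median CV of 0.205 over 7 members, of which 1 was variable, against 1.54% of all probe sets at that signal. Avp, vasopressin, read 425.3, 146.6, 71.2, 324.2, 194.4 and 207.3 (CV 0.558), whereas Oxt, oxytocin, made in the same hypothalamic nuclei, stayed between 309.9 and 469.8 (CV 0.171). Both were highest in brain 1. Hcrt, the orexin precursor of the lateral hypothalamus, read 197.7 to 292.7 (CV 0.126). Cck, cholecystokinin, was the brightest of the list and ran from 1683 in brain 1 to 2898 in brain 5.

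Synaptic and cytoskeletal genes centred on the spread of all probe sets at that signal. The synaptic vesicle list had a median CV of 0.165 with 1 of 16 stable, Dnm1, and 1 variable, Syn2. Of all probe sets at that signal, 14.3% were stable and 1.54% variable. The neuronal cytoskeleton list had a median of 0.163, with 4 of 19 stable (14.3% overall), led by the beta tubulin Tubb2a (2270 to 2788, CV 0.066). Map1lc3a, the autophagosome protein LC3A, was its variable member, from 252.9 in brain 2 to 1119 in brain 4. Brain 5 was highest for 10 of the 19, against 20.5% of all probe sets.

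Of 20 receptor and transmitter genes of glutamate and GABA, 8 reached a mean of 100, with a median CV of 0.183. Gad1, which makes GABA, read 1622 to 1769 in 5 brains and 2064 in brain 3 (CV 0.085), and Slc32a1, the vesicular GABA transporter, 3159 to 4063 (CV 0.095). Grik5, a kainate receptor subunit, was variable, with 83.0 in brain 2 and 807.4 in brain 4. Prkcb, a protein kinase C of neurons, was the stablest of the calcium-signalling list, at 2842 to 3350 (CV 0.056). A dimmer Prkcb probe set read 232.2 to 467.1 (CV 0.279). Atp1b2, the glial beta subunit of the sodium-potassium pump, was variable (82.9 in brain 3 to 341.4 in brain 4), while Atp1b3 ran from 1534 to 2735.

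Genes of the basic cell machinery differed in evenness by complex. The 14-3-3 adaptor proteins had the lowest median, 0.098, with 3 of 6 stable, against 14.3% of all probe sets at that signal. Ywhag (3393 to 4162) and Ywhaq (2239 to 2732) were among the stable ones. The vacuolar ATPase, the proton pump of synaptic vesicles and lysosomes, had a median of 0.110 with 5 of 12 stable, against the same 14.3%. Its subunits Atp6v1a (3262 to 3834) and Atp6v1b2 (3340 to 3889) had CVs of 0.062 and 0.063, but Atp6v0d1 read 1610 in brain 5 and 700.8 to 947.9 in the rest. Dimmer probe sets of Atp6v1a, with means of 1322 and 399.6, had CVs of 0.295 and 0.164. A dimmer Atp6v1b2 probe set, with a mean of 104.0, had a CV of 0.254.

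Of 54 respiratory chain and ATP synthase genes, 15 were stable (14.3% of all probe sets were) and none was variable, with a median CV of 0.154. Uqcrc1, a core subunit of complex III, varied most, from 349.4 in brain 6 to 867.4 in brain 5. Brain 1 was highest for 20 of the 54, against 19.9% of all probe sets, and brain 5 lowest for 26, against 20.7%. The ribosomal proteins had a median CV of 0.142 over 20 members, of which 3 were stable, near the 14.3% of all probe sets. Rps27 at 180.9 to 218.3 and Rpl8 at 1461 to 2718 were the extremes. Brain 6 was lowest for 10 of the 20, against 17.2% of all probe sets, and highest for none, against 14.1%. The proteasome list had a median of 0.171, from Psmb4 (1262 to 1433, CV 0.047) to Psmb5 (185.4 to 406.7, CV 0.330).

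Glycolytic genes had a lower summed signal in brains 1, 4 and 6 than in brains 2, 3 and 5. The sum was 15074, 19155, 19243, 13455, 20046 and 14064 in brains 1 to 6, and 8 of the 13 members were highest in brain 5, against 20.5% of all probe sets. Pgk1 was the stablest (1253 to 1818, CV 0.129) and Hk1, the brain hexokinase that starts glycolysis, the most variable (858.5 in brain 1 to 2216 in brain 3). None of the 13 was stable, against 14.3% of all probe sets at that signal. Among splicing factors 3 of 19 were stable, near the 14.3% of all probe sets at that signal, with Sf3b2 at 268.1 to 334.4. Another 2 were variable, against 1.54% of all probe sets. Sf3b1, the core of the U2 particle, was one of them on its brightest probe set and ran from 519.0 in brain 1 to 123.4 in brain 5. A dimmer Sf3b1 probe set did not share this spread or order. It read 130.1 in brain 3 to 187.5 in brain 4 (CV 0.1496).

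Genes commonly used to normalise expression had a median CV of 0.137, below the overall 0.164. Of 14 measured, 12 had a mean of at least 100, and none of the 12 was stable, against 14.3% of all probe sets at that signal. Hprt (921.3 to 1240, CV 0.106) and Ywhaz (2559 to 3466, CV 0.106) came closest. Rpl13a, Sdha, Pgk1, Rplp0, Eef1a1 and Rps18 had CVs from 0.122 (Rpl13a) to 0.15 (Rps18).

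Actb read 320.7 to 470.2 (CV 0.179) on its brightest probe set outside the controls. The 3′ Actb control, which was left out, read 4486 in brain 5 to 9243 in brain 1. B2m, a subunit of class I molecules, went from 528.7 to 888.1 (CV 0.212). Polr2a, the large subunit of RNA polymerase II, read 593.7 in brain 1 and 312.7 to 468.7 elsewhere (CV 0.262), and Tfrc, the transferrin receptor, 151.9 to 357.0 (CV 0.311). Tbp and Gusb averaged 67.4 and 34.3, under the signal at which spread was judged.

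**Figure D4:**
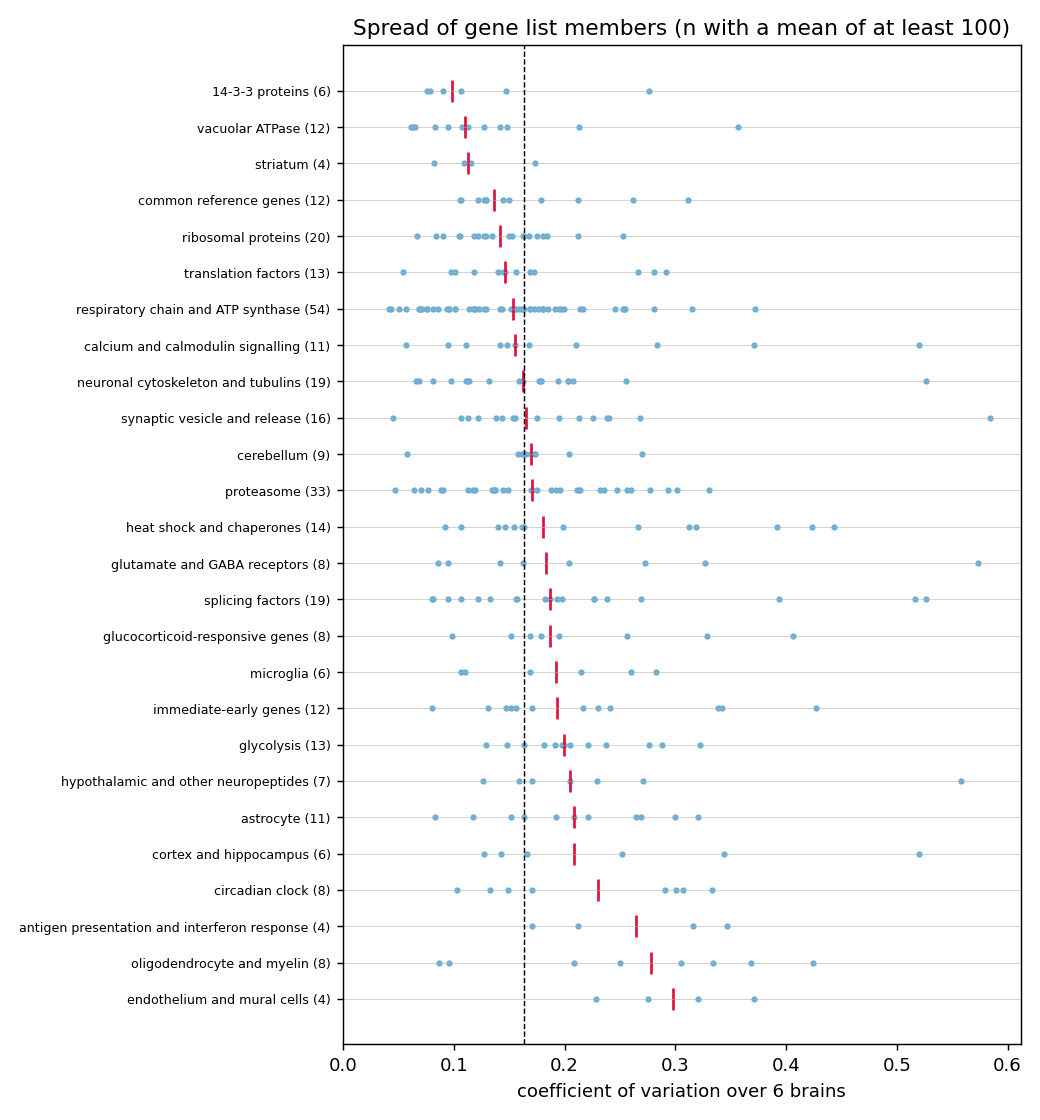
Coefficient of variation over the 6 wild-type brains for each gene (blue points, 1 probe set per gene, mean signal of at least 100) in the 26 lists with at least 4 such genes, with the list's median as a red bar. The number of genes stands in brackets after each list's name, and the dashed line marks the median of all probe sets at that signal, 0.164. The 14-3-3 proteins (0.098) and the vacuolar ATPase (0.110) lie left of it, and myelin (0.278) and vessels (0.298) lie right.

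Immediate-early genes were higher in brain 4 than in the other brains for 7 of the 12 members with a mean of at least 100, against 14.9% of all probe sets at that signal. Brain 4 is also the array with the highest Gapdh ratio, and the part of that in these values was not tested. Dusp1, a phosphatase that switches off MAP kinases, read 506.2, 362.0, 332.0, 804.6, 471.8 and 608.0. Fos, the activator protein subunit used as a mark of neuronal firing, read 334.6, 309.9, 274.5, 408.4, 197.3 and 384.2. Nr4a1, an orphan nuclear receptor, read 213.6, 169.6, 204.7, 303.1, 169.3 and 219.0. Ier2 was the most variable of the list, from 61.4 in brain 3 to 194.3 in brain 4 (CV 0.427), and Dusp6 the stablest, at 191.0 to 237.5. Jund, the brightest, was highest in brain 1 at 4765. Without brain 4 the CVs were 0.245 for Dusp1 (from 0.338), 0.123 for Nr4a1 (from 0.230), 0.233 for Fos (from 0.241) and 0.407 for Ier2.

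The window of 250 bases before the annotated start is shown for Fos, Dusp1 and Nr4a1. These are 3 of the 7 listed members highest in brain 4, chosen after their values were seen. No window of Ier2 was among the sequences used. The sequences are RefSeq's for assembly GRCm38.p6, written on the gene's strand, and capitals mark TGACG or its complement CGTCA, the core to which the cyclic AMP response factor CREB binds, or the full TGACGTCA.
Fos chr12:85473640-85473889 (+): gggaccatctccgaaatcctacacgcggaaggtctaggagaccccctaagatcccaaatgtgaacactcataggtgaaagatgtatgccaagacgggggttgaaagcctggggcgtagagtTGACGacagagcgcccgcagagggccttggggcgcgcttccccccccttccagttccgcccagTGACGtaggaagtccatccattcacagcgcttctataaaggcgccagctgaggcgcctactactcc
Dusp1 chr17:26508473-26508722 (-): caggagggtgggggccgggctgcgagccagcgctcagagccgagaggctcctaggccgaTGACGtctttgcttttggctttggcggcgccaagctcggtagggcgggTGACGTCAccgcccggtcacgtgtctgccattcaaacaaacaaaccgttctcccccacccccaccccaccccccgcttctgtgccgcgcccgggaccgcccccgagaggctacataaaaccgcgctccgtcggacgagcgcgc
Nr4a1 chr15:101266596-101266845 (+): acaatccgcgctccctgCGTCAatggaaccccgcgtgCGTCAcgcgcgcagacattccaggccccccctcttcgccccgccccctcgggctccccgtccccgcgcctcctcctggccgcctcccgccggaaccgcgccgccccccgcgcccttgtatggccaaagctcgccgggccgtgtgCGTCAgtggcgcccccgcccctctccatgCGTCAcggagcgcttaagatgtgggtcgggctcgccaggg

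Searched on both strands, TGACG occurred 2 times in the Fos window, 3 times in that of Dusp1 and 4 times in that of Nr4a1, with the full TGACGTCA counted as 2 overlapping matches. Of the 32851 windows of this length in the table, 17.8% hold at least 1 match, 3.90% at least 2, 0.688% at least 3 and 0.137% at least 4. The full TGACGTCA is in 1.55% of them and, of these 3 genes, in Dusp1. The matches are a description of the letters and not of binding in these brains.

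Hormone, stress and clock genes had their own orders of brains. Sgk1, a kinase induced by corticosterone, read 381.0, 1335, 999.4, 858.9, 537.8 and 902.0, a 3.50-fold range between brains 1 and 2. Zbtb16, another glucocorticoid target, read 455.8, 788.0, 627.6, 445.7, 344.3 and 392.2, highest in brain 2 as well, whereas Fkbp5 was highest in brain 4 at 280.6. Nfkbia, an inhibitor of NF-kappa B, was the stablest of the list, at 194.9 to 247.1. The targets therefore did not share one order.

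Both metallothioneins of this list were lowest in brain 5: Mt1 read 2867 there and 4146 to 5055 in the others, and Mt2 is given above. Mt3, the brain form, was lower in all of brains 4, 5 and 6 (3208 to 3449) than in brains 1 to 3 (4741 to 5918). Dnajb1, a heat-inducible partner of the 70-kilodalton heat shock proteins, read 137.7 in brain 1 and 473.5 in brain 2 (CV 0.443). Hspe1, the mitochondrial co-chaperonin, was the stablest of the chaperones, at 828.6 to 1082. Brain 2 was highest for 6 of the 14 chaperone genes and brain 5 for 5, against 14.98% and 20.5% of all probe sets at that signal.

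Among clock genes, Tef, an output factor, read 372.9, 721.9, 826.6, 456.2, 526.6 and 481.0, and Nr1d1, the repressor REV-ERB alpha, 147.2, 213.4, 196.7, 133.8, 82.3 and 115.8. Nr1d2, its relative, was nearly even at 280.9 to 362.9 (CV 0.103). Dbp, a relative of Tef, was instead highest in brain 4, at 528.1. The hour of collection is not known here, and its part in these values was not tested.

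**Figure D5:**
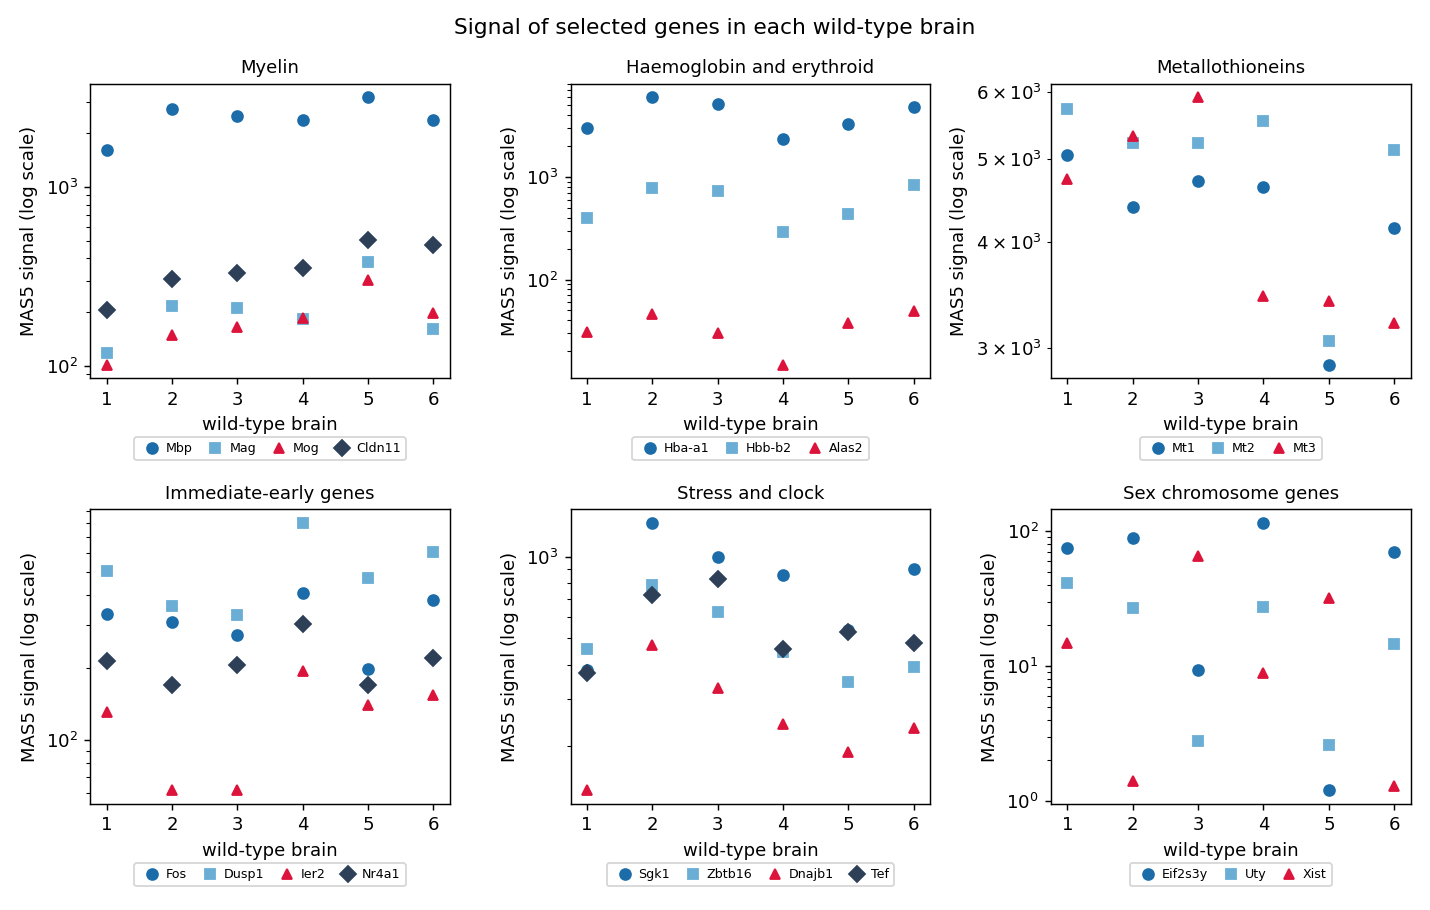
MAS5 signal (log scale, a separate range in each panel) in the 6 wild-type brains, which have no order, for selected genes. Mbp, Mag, Mog and Cldn11 are lowest in brain 1, the globins in brain 4, and Mt1 and Mt2 in brain 5; Fos, Dusp1, Ier2 and Nr4a1 are highest in brain 4, Sgk1 in brain 2, and Eif2s3y and Uty are high in the males (brains 1, 2, 4 and 6) and Xist in the females (3 and 5).

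The 2 females and 4 males allowed a test of sex, which also checked the labels. Genes of the Y chromosome are carried by males, and Xist is transcribed from the inactive X of females. Eif2s3y, a Y-linked translation factor subunit, read 74.4, 89.1, 115.3 and 70.3 in the males and 9.3 and 1.2 in the females. Uty, a Y-linked demethylase relative, read 14.6 to 41.4 in males and 2.8 and 2.6 in females, and Xist 1.3 to 14.7 in males and 65.9 and 32.2 in females. The sexes overlapped for none of these 3 genes, so every array matched its sex label. The Y-linked Kdm5d was at 2.6 to 7.0 in all brains and told nothing.

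In the fit across 7453 probe sets (limma, Benjamini-Hochberg adjustment), 2 passed, 0.0268% of those tested, both lower in females, and 439 had an unadjusted p below the same threshold. One was Eif2s3y, with a female minus male difference of -4.00 ± 0.47 (log2, SE) and an adjusted p of 0.0308 by limma. The other was 103842_at, a probe set without a gene name, with 82.1 to 93.2 in males and 0.4 and 0.6 in females (log2 difference -4.81 ± 0.35, limma's adjusted p 0.0008). Female signals of both lay partly under the floor of 3.1, so these differences are understated. No call remained when brain 1, 2, 4 or 6 was left out, each a male, although the values of both sexes stayed apart.

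X-linked genes that escape silencing had higher means in females and did not pass the test. Eif2s3x read 1362 and 1220 in females and 809.1 to 1076 in males (log2 difference 0.46 ± 0.16, limma's adjusted p 0.79). Ddx3x read 245.7 and 286.3 in females and 160.7 to 269.7 in males (0.47 ± 0.24), and Kdm6a 97.9 and 131.3 against 70.0 to 145.8 (0.42 ± 0.33), so the sexes overlapped for both on these probe sets. A dimmer probe set of Ddx3x read 102.8 and 97.7 in females and 43.8 to 71.0 in males without overlap (0.81 ± 0.28, limma's adjusted p 0.79). With 2 females, differences of this size could not be separated from the spread between brains.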

How the data were processed

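The authors deposited linear intensity values, a single one for each probe set of an array. The submitters' processing notes name MAS5, whose version and settings are not given in the sources used here. MAS5 scales every array to a common mean, so a change shared by most transcripts would not show. The 66 control probe sets were left out. Gene names come from the platform annotation, with 1 gene for 10833 probe sets, several for 396 and none for 1193, and only the first were named; 10817 were found in RefSeq's gene table (GRCm38.p6), giving 8251 genes. The group and the gene lists were chosen with earlier results of these data known. Replicate numbers were given in accession order.

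The mean, SD and CV were computed per probe set over the 6 brains (Python 3.11.15, pandas 2.3.3). Genes were named by rule: the 25 brightest, the 20 lowest and 25 highest CVs at a mean of at least 100, the 10 highest CVs at a mean of at least 1000, the 5 highest at any mean, the brightest, stablest and most variable member of each list, all sex chromosome and reference genes, and all calls of the sex test. For that test signals under the 10th percentile (3.1) were raised to it, log2 was taken, probe sets under the 40th percentile of the mean were dropped, and limma 3.58.1 (R 4.3.3) was run with lmFit and eBayes with a trend, at an adjusted p threshold of 0.05. The number of arrays sets the precision, and p-values measure the spread between single animals. On simulated data with 200 changed probe sets this test, 2 against 4 arrays, found 46% of the 2-fold and 81% of the 4-fold ones; 13 of its 140 calls were false, and it made 0 calls where nothing was changed. Other scalings, signal minimums, a log-scale spread, spread within number letters and leaving out each brain were tried as alternatives.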

Additional observations from a re-analysis of the deposited data

Results flagged for a closer look

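In each of 214 quantities over the 6 brains (named genes, list sums and array measures), the gap between the highest or lowest brain and its nearest neighbour was divided by the whole range. In 21 the quotient passed Dixon's 95% critical value, which chance exceeds in about 1 of 20 sets. Many of the genes were named for their spread, so that rate does not apply to them. Of the array measures it did so for the 3′ to 5′ ratio of Gapdh, high in brain 4 (0.670).

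Brain 5 was the lone brain most often. It was low in the summed signal of the glucocorticoid-responsive genes (7758 against 11766 to 12960, quotient 0.770), in Mt2 of that list (0.774) and in the proteasome subunit Psma3 (1752 against 2305 to 2606, 0.648). Brain 5 was high in the summed 14-3-3 proteins (12780 against 11707 to 12056, 0.675), Nnat (0.781), Ckb (0.663), Mag (0.629), C1qa (0.669) and the proton pump subunit Atp6v0d1 (0.728).

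Brain 2 was low in Eef1a2 (0.635) and with it in the summed translation factors (12320 against 16083 to 17510, 0.725), since Eef1a2 holds much of that sum. Brain 4 was high in Tnp1 (0.739) and Slc23a3, a probe set ending in _r_at (256 against 58.2 to 122.3, 0.676; its CV of 0.615 was 0.297 without brain 4). Sox13 stood out in brain 1 (0.814) and Gad1 in brain 3 (0.667), which both have a CV under 0.10.

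The 5 named probe sets with the highest CV at any signal, all at a mean under 5, were set by 1 brain each, which so high a CV over 6 values requires. These were Tex21 (12 in brain 4 against 0.4 to 1.0, quotient 0.948), Cd80 (12.8 in brain 4 against 0.5 to 1.2, 0.943), Ptprr (9.2 in brain 1 against 0.3 to 0.9, 0.933), a dim second probe set of Cry1 (10.3 in brain 1 against 0.3 to 1.6, 0.870) and 6330403K07Rik (20 in brain 1 against 0.4 to 3.8, 0.827).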

How the results depend on the processing

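The count of bright probe sets ranged over 533 to 541 when one brain was left out, that of stable ones over 662 to 887 and that of variable ones over 48 to 79, against 541, 625 and 67. The median CV ranged over 0.156 to 0.169 (0.164 with all 6). With the SD pooled within the number letters, 974 probe sets were stable, 26 variable, and the median CV was 0.149. The minimum mean signal set the variable count: 152 at 50, 31 at 200 and 3249 with none, with median CVs of 0.178, 0.155 and 0.287. Taking 1 probe set per gene left 44 variable. Dividing arrays by their medians gave a median CV of 0.176 and 432 stable probe sets, of which 327 were among the 625. Quantile normalization kept all 67 variable ones.

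The sex test gave 1 call after quantile normalization and 1 without the filter on low signal, 103842_at each time, and 0 to 2 when one brain was left out. Without a trend of variance Msh3 replaced Eif2s3y, and without brain 5 Itgav did. No paired analysis was possible because the labels give the brains no replicate numbers shared between groups. With 6 arrays the interval of a CV runs from 0.624 to 2.45 times its value, so neighbours in the rankings are not separated.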

Other observations

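Cell division genes were near the lower limit in the whole brain: 3 of 17 measured reached a mean of 100. Pcna, the clamp of replicating DNA, was brightest, at 280.7 to 403.1 (CV 0.156), and Plk1, a mitotic kinase, read 78.9 to 157.9. Of 8 genes of monoamine synthesis and transport, 2 reached 100, the monoamine oxidase Maoa (166.0 to 245.2, CV 0.138) and Ddc, the decarboxylase of dopamine and serotonin synthesis (102.0 to 164.2). Genes of class I antigen presentation and interferon response were mostly dim as well, with 4 of 17 at 100 or above. H2-D1 read 246.6 in brain 5 and 196.4 in brain 1, against 109.3 to 158.5 in the other brains (CV 0.347).

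Translation factors other than Eef1a2 were fairly even, with a median CV of 0.145 over 12 members. Eif5, which triggers start-site recognition, read 418.6 to 491.9 (CV 0.054). Several stable or variable probe sets have no single gene name here. Among them 161510_f_at read 3823 to 4142 (CV 0.028), the second most even after Ddx17 among all probe sets with a mean of at least 100, and 104686_at read 33.0 in brain 2 and 317.7 in brain 4 (CV 0.772).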
